A study of Mus musculus with 28 samples.

Results

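The matrix metalloproteinases (Mmp genes), the tissue inhibitors of metalloproteinases (Timp genes) and the ADAMTS proteases (Adamts genes) were followed across 3 cell populations of mouse bone marrow and bone. Members were taken by symbol alone, as Mmp, Timp or Adamts followed by a number, with a closing letter allowed for Mmp. This rule found 45 of the 25251 genes in the table, of which 22 were Mmp, 4 were Timp and 19 were Adamts. Mmp1a was not analysed here. RNA had been sequenced from endothelial cells (ECs; CD45-Ter119-CD31+), mesenchymal stromal cells (MSCs; CD45-Ter119-CD31-CD166-Sca1+) and bone marrow mononuclear cells (MNCs) of C57 BL6 mice aged 8 to 10 wk. The mice were Flt3+/+ or Flt3ITD/ITD, the latter carrying on both alleles a knock-in of an internal tandem duplication (ITD) in the receptor tyrosine kinase Flt3. The knock-in was constitutive, so that all cells of these mice carried it, and no group received an agent. Each library came from the sorted cells of 1 mouse (100 ECs or MSCs, or 200 MNCs). ECs and MSCs each had 5 libraries of either genotype and MNCs had 4, which made 28. The EC and MSC gates were set on cells lining the bone, and by the labels MSCs were gated without a positive stromal marker other than Sca1.

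MMPs are zinc proteases that together cleave most proteins of the extracellular matrix. By substrate and structure they are spoken of as collagenases, gelatinases, stromelysins and membrane-type enzymes, and most are made as inactive precursors. TIMPs bind the active site of these enzymes and block it, and TIMP3 also inhibits several ADAMTS proteases. ADAMTS proteases are secreted enzymes that include aggrecanases and other proteoglycanases, the procollagen N-proteinases that trim fibrillar collagens, and the protease that cuts von Willebrand factor. In bone marrow, neutrophils are known to store MMP8 and MMP9 in their granules, and stromal and bone cells are known as sources of MMP2, MMP13 and MMP14.

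Levels are given as RPKM, the read count divided by transcript length and by the total of the library, so that they can be set side by side between genes. Tests were made on read counts with edgeR's quasi-likelihood test over all genes, and a gene was called when its Benjamini-Hochberg adjusted p-value was below 0.1 and its mean RPKM differed by at least 1 on the log2 scale. Total counts ran from 6377013 to 33880743 per library, with a median of 21194991. Where a gene had no count, 3 counts per library served as its upper limit, which allows for counting error alone since PCR copies were not marked. P-values measure the spread between the mice of a group. The study gives no more mice per genotype than libraries per population, so ECs, MSCs and MNCs may come from the same mice. The tests between populations treated all libraries as independent. Endothelial markers summed to between 1467 and 2087 RPKM in ECs and to at most 28.1 RPKM in the other populations, and all 6 were above 1 RPKM in ECs. Mesenchymal stromal markers summed to between 27650 and 32070 RPKM in MSCs. ECs held 3489 to 6189 RPKM of the stromal list, most of it Ly6a (mean 4759 RPKM in ECs), the gene for Sca1, whereas Pdgfra averaged 0.343 RPKM there. Of a smooth muscle and pericyte list, ECs held 153 to 1179 RPKM and MSCs 17.2 to 168 RPKM. In ECs, Rgs5 of this list averaged 325 RPKM and Tagln 174 RPKM, whereas Cspg4 averaged 0.11 RPKM. The part of such cells in the EC levels was not tested. Leukocyte markers summed to between 2963 and 4627 RPKM in MNCs. Replicate 2 of the Flt3ITD/ITD ECs held 30045 RPKM of neutrophil markers, and replicate 5 of the Flt3ITD/ITD MSCs held 6289.7 RPKM, and the median over the libraries of each population was 61.1 and 54.3 RPKM. Counts of members called between ECs and MSCs are given with and without these 2 libraries, and the DESeq2 tests were made with both.

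In ECs, the inhibitors dominated. The 4 Timp genes summed to 1073 ± 241 RPKM (SD, n = 10) and the 22 Mmp genes to 28.6 ± 8.47 RPKM, so that Timp RNA exceeded Mmp RNA by 18.2 to 67.5 times in every EC library. In MSCs both sums were high, at 559 ± 138 RPKM for Timp genes and 547 ± 207 RPKM for Mmp genes (n = 10), and the ratio of Timp to Mmp ran from 0.71 to 2.02. In MNCs the order was turned, with Mmp genes at 704 ± 381 RPKM and Timp genes at 4.75 ± 2.28 RPKM (n = 8), a ratio of at most 0.0278 in any library. Adamts genes summed to 136 ± 56.3 RPKM in ECs, 138 ± 31.1 RPKM in MSCs and 14.0 ± 3.49 RPKM in MNCs. The 3 populations did not overlap in the ratio of Timp to Mmp RNA.

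**Figure D1:**
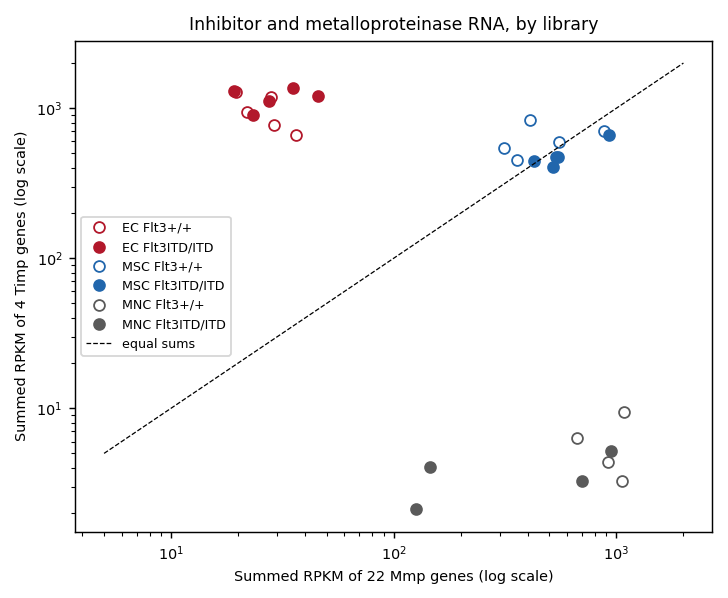
Summed RPKM of the 4 Timp genes (vertical, log scale) against that of the 22 Mmp genes (horizontal, log scale), 1 point per library, with open points for Flt3+/+ and filled points for Flt3ITD/ITD. ECs lie far above the line of equal sums, MSCs near it and MNCs far below it, and 2 Flt3ITD/ITD MNC libraries lie to the left of the other 6, at a Mmp sum of 126 RPKM for the lower of them.

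Of the 45 members, 37 had enough counts to be tested between populations. Those below the filter were Adamts8, Adamts19, Adamts20, Mmp1b, Mmp7, Mmp17, Mmp20 and Mmp21. Between ECs and MSCs, 24 members were called, 6 higher in ECs and 18 lower. Over all 16897 genes tested, 16.3% were higher in ECs and 16.6% lower. Between ECs and MNCs, 24 members were called, 17 higher in ECs, where 23.1% of all genes were, and 7 lower, where 22% were. Between MSCs and MNCs, 30 members were called, 26 higher in MSCs (22.2% of all genes) and 4 lower (22% of all genes). The median log2 fold change of the tested members was -2.18 for ECs against MSCs, 1.36 for ECs against MNCs and 5.11 for MSCs against MNCs, and over all tested genes it was -0.01, 0.00 and -0.02, respectively. A member could pass the filter through 1 population in which it was high, so these counts describe the members that passed. Without the 2 EC and MSC libraries high in neutrophil markers, 22 members were called between ECs and MSCs, and those lost included Mmp9 (adjusted p = 0.0361 with and 0.131 without them by edgeR) and Mmp25 (0.0383 and 0.120). Without the 2 MNC libraries of lowest summed neutrophil list (replicates 3 and 4 of the Flt3ITD/ITD MNCs), 21 members were called between ECs and MNCs and 28 between MSCs and MNCs. In sorted pools, fewer cells of a kind and less RNA per cell cannot be told apart. Called higher in 1 population than in both others were 4 members in ECs (8.21% of all genes tested), 17 in MSCs (9.61%) and 4 in MNCs (14.2%).

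**Figure D2:**
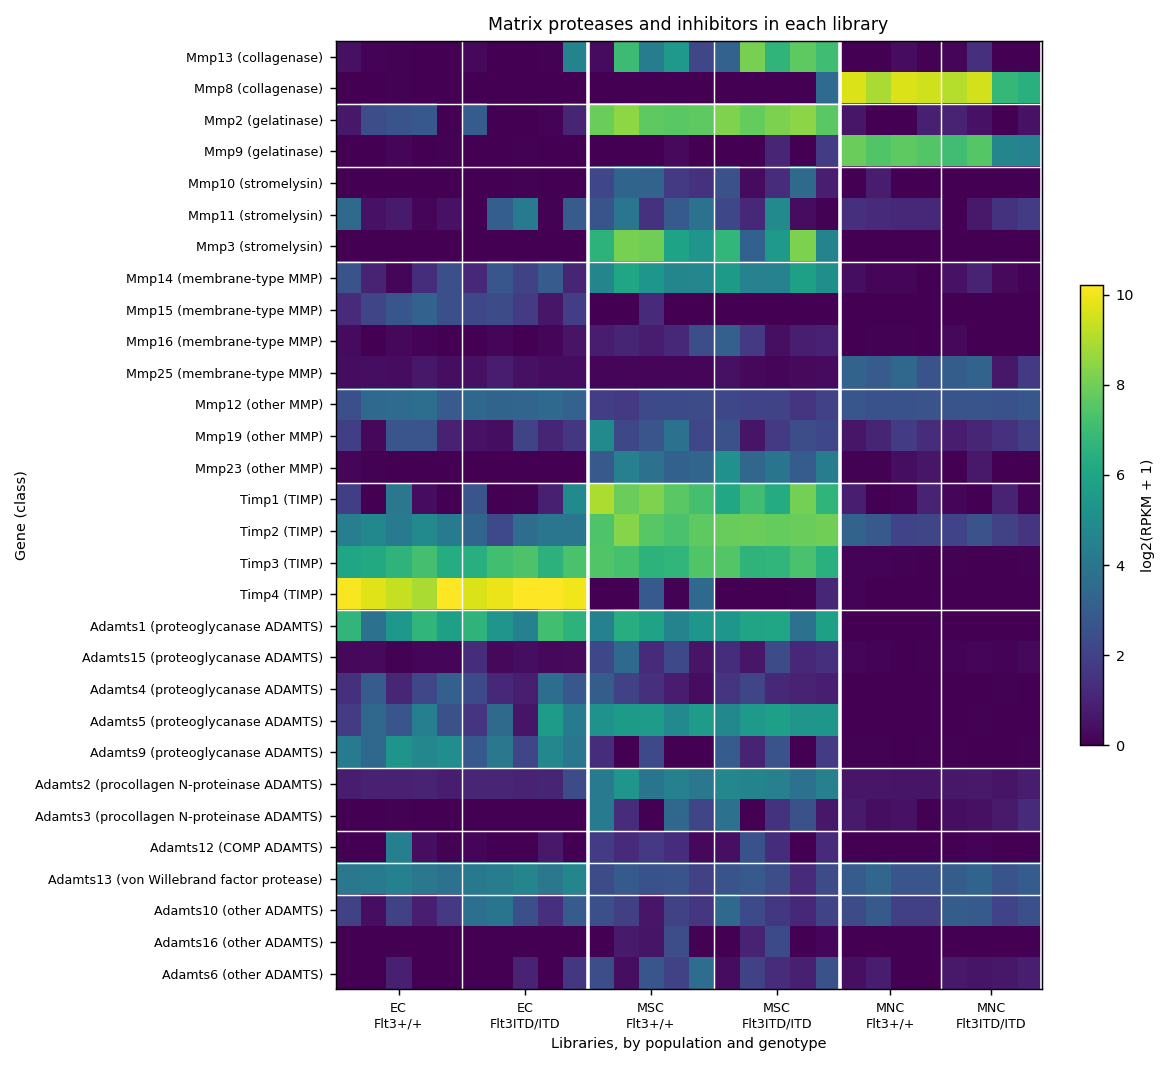
Level of each member whose mean reached 1 RPKM in at least 1 population, as log2(RPKM + 1), with genes in rows ordered by class and the 28 libraries in columns ordered by population and genotype. Timp4 is bright in the EC columns alone, Mmp8 and Mmp9 in the MNC columns, and Mmp2, Mmp3, Timp1 and Timp2 in the MSC columns, with Timp3 and Adamts1 shared by ECs and MSCs.

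Timp4, which encodes the TIMP of most restricted tissue distribution, was the leading member in ECs. Its level in the Flt3+/+ ECs was 1109, 840, 635, 485 and 1176 RPKM, and in the Flt3ITD/ITD ECs 801, 979, 1191, 1186 and 1016 RPKM. In MSCs Timp4 was at or below 0.04 RPKM in 7 of 10 libraries and reached 10.3 RPKM in 1, and in MNCs it was at most 0.06 RPKM. Every EC library thus lay above every other library, and Timp4 made up 87.8% of EC Timp RNA. Against MSCs the log2 fold change was 10.03 ± 1.23 (SE; edgeR adjusted p = 1.24e-06) and against MNCs the edgeR adjusted p was 1.47e-07. Timp4 was also called between MSCs and MNCs (adjusted p = 0.0031), but not without replicate 5 of the Flt3ITD/ITD MSCs (adjusted p = 0.196). Timp4 levels of the 2 genotypes overlapped in ECs.

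Timp3, whose product is held in the matrix and inhibits ADAMTS proteases as well as MMPs, was the second member in ECs and was shared with MSCs. It ranged from 62.6 to 162 RPKM in ECs (mean 109.5 ± 37.2, n = 10) and from 88.4 to 178 RPKM in MSCs (mean 132.6 ± 36.8, n = 10), and was at most 0.08 RPKM in MNCs. The EC and MSC ranges overlapped and the difference was not called (log2 fold change -0.54 ± 0.25, edgeR adjusted p = 0.0964, short of the fold required). Both populations were above MNCs (edgeR adjusted p = 2.23e-16 for ECs and 1.11e-16 for MSCs).

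Timp1 and Timp2 were the inhibitors of MSCs. Timp1, a secreted inhibitor known to be induced by growth factors and cytokines, was at 494, 233, 302, 194 and 147 RPKM in Flt3+/+ MSCs and at 66.4, 134, 76.4, 269 and 102 RPKM in Flt3ITD/ITD MSCs. It was at most 28.7 RPKM in ECs and 1.01 RPKM in MNCs. Timp2, which is needed on the cell surface for the activation of pro-MMP2 by MMP14, was at 167, 325, 187, 155 and 207 RPKM in Flt3+/+ MSCs and at 231, 241, 223, 235 and 253 RPKM in Flt3ITD/ITD MSCs. It averaged 16.5 RPKM in ECs and 4.33 RPKM in MNCs, where it was the only Timp gene above 1 RPKM on average. For both genes, every MSC library was above every other library. The log2 fold change of ECs against MSCs was -5.46 ± 1.17 for Timp1 (edgeR adjusted p = 0.000739) and -4.08 ± 0.24 for Timp2 (adjusted p = 1.37e-12).

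**Figure D3:**
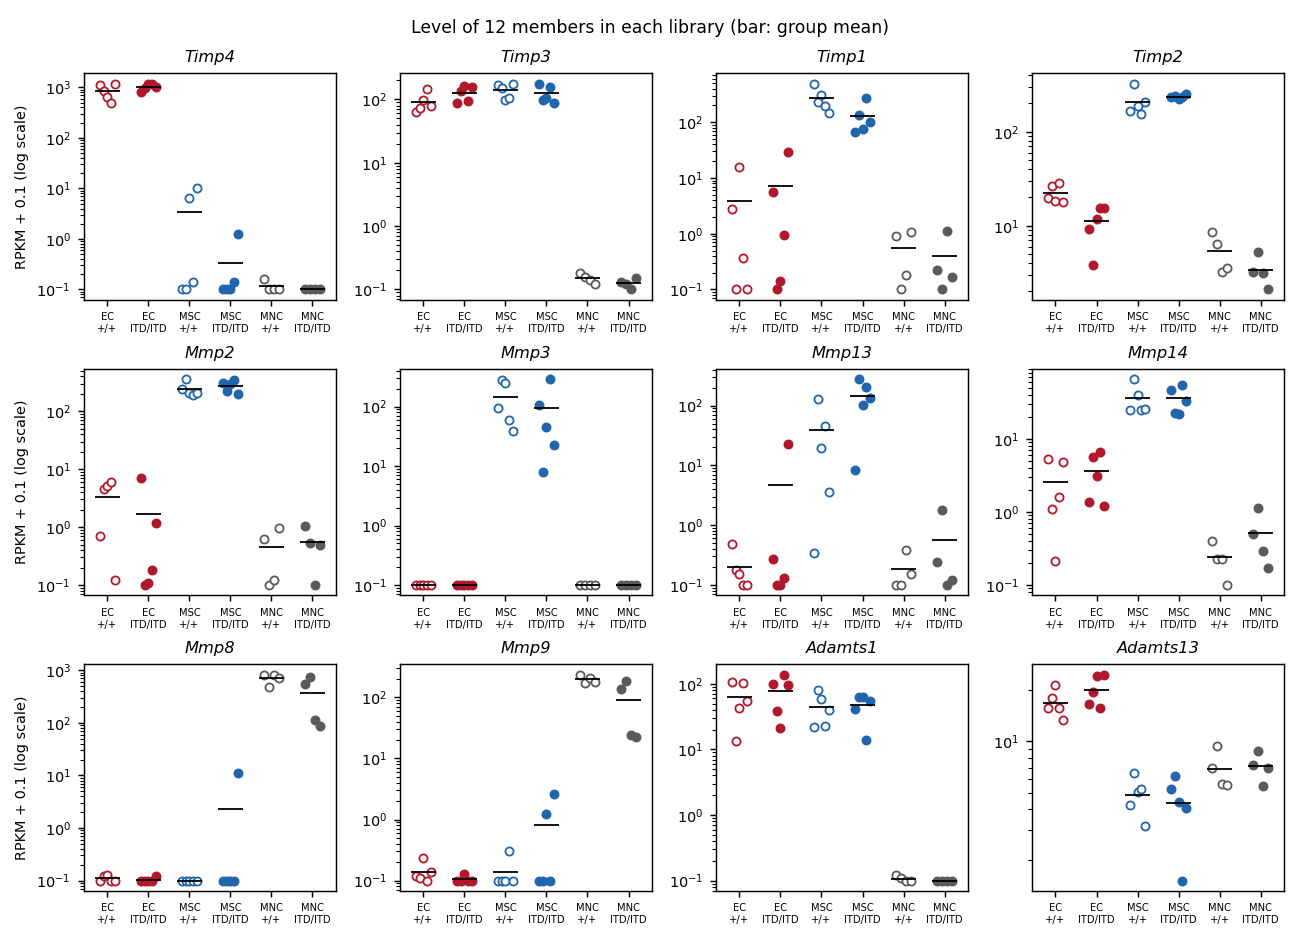
RPKM of 12 members in each library on a log scale, with 0.1 added so that values of 0 can be drawn, by population and genotype (open points, Flt3+/+; filled points, Flt3ITD/ITD; bar, group mean). Timp4 separates ECs, Mmp3 and Mmp2 separate MSCs and Mmp8 and Mmp9 separate MNCs, whereas Mmp13 spans 0.24 to 277 RPKM within MSCs.

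Among the gelatinases, Mmp2 marked MSCs and Mmp9 marked MNCs. Mmp2 was at 240.3, 359.9, 204, 191 and 206 RPKM in Flt3+/+ MSCs and at 304, 220, 295, 351 and 195 RPKM in Flt3ITD/ITD MSCs, and made up 47.0% of MSC Mmp RNA. It was at most 6.82 RPKM in ECs and 0.95 RPKM in MNCs (log2 fold change of ECs against MSCs -7.13 ± 1.13, edgeR adjusted p = 2.26e-05). Every MSC library was above all libraries of the other populations. Mmp14, the membrane-type enzyme that activates pro-MMP2, was also highest in MSCs, at 21.99 to 65.9 RPKM against at most 6.62 RPKM in ECs (log2 fold change -3.84 ± 0.62, edgeR adjusted p = 2.54e-05) and 1.03 RPKM in MNCs. With Timp2, the 3 genes of the pro-MMP2 activation complex were thus each highest in MSCs. The members of the osteoclast list, a cell type known for MMP9 and MMP14, summed to 260.2 to 514 RPKM in MSCs, with 3 of 6 genes at or below 3 counts in every MSC library. Most of this sum was Ctsk (mean 387 RPKM in MSCs), whereas Acp5 averaged 6.045 RPKM and Atp6v0d2 2.59 RPKM.

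A group of 9 members lies side by side on chromosome 9 (GRCm38), in the order Mmp13, Mmp12, Mmp1b, Mmp3, Mmp10, Mmp8, Mmp27, Mmp20 and Mmp7 from 7272514 to 7699585, and neighbors in it differed in the population that held their RNA. Mmp3 (stromelysin 1, 7445822 to 7455975), Mmp10 (stromelysin 2, 7502352 to 7510240) and Mmp13 (collagenase 3, 7272514 to 7283331) were highest in MSCs, and Mmp8 (neutrophil collagenase, 7558456 to 7568485) in MNCs. Promoter sequences of these 4 genes are shown because the neighbors differ so widely in where they are read. Each runs 5′ to 3′ over the 250 bases before the transcription start, from RefSeq on GRCm38.p6, with matches to either of a pair of motifs in capitals, searched on both strands. The first is TGANTCA, a site of the AP-1 factors Fos and Jun. The other is the TATA box, spelled TATAAA.
Mmp13 (chr9:7272264-7272513, + strand): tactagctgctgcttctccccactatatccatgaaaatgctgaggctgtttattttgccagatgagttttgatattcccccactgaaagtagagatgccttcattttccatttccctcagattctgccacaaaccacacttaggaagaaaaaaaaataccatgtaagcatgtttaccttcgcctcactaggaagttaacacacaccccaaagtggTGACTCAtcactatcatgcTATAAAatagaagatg
Mmp3 (chr9:7445572-7445821, + strand): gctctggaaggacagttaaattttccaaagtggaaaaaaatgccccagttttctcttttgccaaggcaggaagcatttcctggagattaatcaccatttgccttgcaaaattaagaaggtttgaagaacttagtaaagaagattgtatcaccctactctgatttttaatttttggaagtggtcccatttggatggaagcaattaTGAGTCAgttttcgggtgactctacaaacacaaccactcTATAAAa
Mmp10 (chr9:7502092-7502341, + strand): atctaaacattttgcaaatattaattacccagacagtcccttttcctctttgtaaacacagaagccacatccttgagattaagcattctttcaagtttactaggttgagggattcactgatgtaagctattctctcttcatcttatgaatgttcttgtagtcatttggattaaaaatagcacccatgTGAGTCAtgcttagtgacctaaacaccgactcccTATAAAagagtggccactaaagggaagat
Mmp8 (chr9:7558179-7558428, + strand): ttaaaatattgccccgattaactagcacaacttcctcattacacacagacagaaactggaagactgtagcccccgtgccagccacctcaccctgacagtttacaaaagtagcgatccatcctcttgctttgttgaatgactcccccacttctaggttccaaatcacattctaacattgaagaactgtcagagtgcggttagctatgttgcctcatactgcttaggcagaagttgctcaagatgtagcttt
The AP-1 match began 35 bases before the start of Mmp13, 46 before that of Mmp3 and 63 before that of Mmp10, and the TATA match began 16, 7 and 29 bases before it, respectively. Neither was found in the window of Mmp8. Of 34 promoters of 31 members with a sequence in the table, 7 held the AP-1 letters, those of Mmp3, Mmp7, Mmp10, Mmp12, Mmp13, Mmp1b and Mmp20, all of the chromosome 9 group. The TATA letters were held by 8 of the 34, those of Adamts1, Mmp3, Mmp7, Mmp10, Mmp13, Mmp1b, Mmp20 and Mmp21. Mmp7, Mmp1b and Mmp20, in both sets, had at most 1 count in any library. Over all 32536 promoters of the same length, 6.73% held the AP-1 letters and 12.3% the TATA letters. Whether the motifs go with the levels was not tested. Fos averaged 909.5 ± 287 RPKM in ECs (n = 10), 1422 ± 447 RPKM in MSCs (n = 10) and 132 ± 143 RPKM in MNCs (n = 8). The summed RPKM of 8 genes known to respond to tissue dissociation, Fos and Jun among them, was 803 to 2690 in ECs, 1309 to 3514 in MSCs and 14.3 to 455 in MNCs. In MNCs the sum was 394 and 309 RPKM in replicates 1 and 2 of Flt3+/+ and 455 and 252 RPKM in those of Flt3ITD/ITD. In replicates 3 and 4 it was 20.8 and 18.7 RPKM, and 29.7 and 14.3 RPKM, respectively. The part of this response in the levels of the members was not tested.

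Mmp3 was read in MSCs alone. It was at 96.8, 277, 252, 59.5 and 39.0 RPKM in Flt3+/+ MSCs and at 108, 7.90, 45.6, 291 and 22.8 RPKM in Flt3ITD/ITD MSCs, and had no count in any of the 10 EC or 8 MNC libraries. With 3 counts per library as the floor, its mean of 120.0 RPKM in MSCs was at least 1169-fold higher than in ECs and at least 1366-fold higher than in MNCs. The edgeR adjusted p was 3.18e-06 against ECs and 4.29e-06 against MNCs. Values within MSCs ranged from 7.90 to 291 RPKM in both genotypes together, with a coefficient of variation of 92.1%, against 25.3% for Mmp2.

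Mmp10 followed Mmp3 across MSC libraries at 2.80 to 4.23% of its count. Of 1672 windows of 51 bases (the read length) in the Mmp10 transcript, 137 (8.19%) were found unchanged in Mmp3 and 303 (18.1%) with at most 2 mismatches. Reads that matched more than 1 place had been discarded, and the part of reads from Mmp3 in the Mmp10 count was not tested. The range of Mmp10 in MSCs (0.24 to 10.7 RPKM) is therefore uncertain. In replicate 2 of the Flt3+/+ MNCs Mmp10 had 23 counts (0.74 RPKM), where Mmp3 had none.

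**Figure D4:**
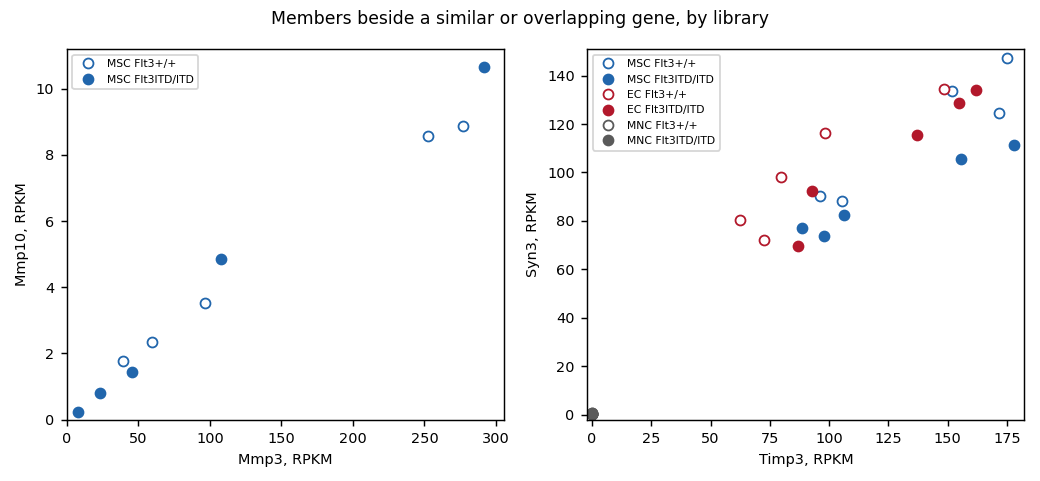
Left, RPKM of Mmp10 against that of Mmp3 in the 10 MSC libraries, and right, RPKM of Syn3 against that of Timp3 in all libraries, with open points for Flt3+/+ and filled points for Flt3ITD/ITD. Mmp10 rises with Mmp3 at a nearly fixed share, and Syn3 lies at 0.626 to 1.28 times Timp3 in ECs and MSCs, with MNCs near 0 in both.

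Mmp13, the main collagenase of mouse bone and cartilage, had the highest coefficient of variation (103%) among the 11 members that averaged at least 10 RPKM in MSCs. It was at 0.24, 127, 19.2, 45.0 and 3.52 RPKM in Flt3+/+ MSCs and at 8.35, 277, 102, 207 and 135 RPKM in Flt3ITD/ITD MSCs (mean 38.9 ± 52.1 and 145.9 ± 102, n = 5 each). The genotypes overlapped and did not differ by the exact permutation test (two-sided p = 0.0873) or by edgeR (log2 fold change 1.997 ± 1.20, adjusted p = 0.999). Mmp13 was at most 1.68 RPKM in MNCs, and in ECs at most 0.38 RPKM except in replicate 5 of the Flt3ITD/ITD ECs, at 22.9 RPKM. The same EC library held the highest EC level of Timp1 (28.7 RPKM), of Adamts2 (4.19 RPKM) and of the osteoblast list (213 RPKM, against 5.35 to 87.8 RPKM in the other EC libraries). Most of that sum was Ibsp (150 RPKM) and Alpl (56.5 RPKM), and Alpl averaged 33.2 RPKM in ECs against 11.05 RPKM in MSCs. Of the stromal list, Dcn (54.6 RPKM), Lum (22.3 RPKM) and Col1a1 (1.27 RPKM) were also highest there among ECs, whereas Pdgfra, Pdgfrb and Ly6a were not. Dcn was nearly as high (51.1 RPKM) in replicate 2 of the Flt3+/+ ECs, where Mmp13 was at 0.08 RPKM. Osteoblast markers summed to 185 to 3550 RPKM in MSCs and chondrocyte markers to 362 to 1175 RPKM. Their part in these values was not tested.

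Mmp12 (macrophage elastase, 7344381 to 7369499), the neighbor of Mmp13, differed from the rest of the group in that it was read in all 28 libraries. It was the first Mmp gene of ECs (9.09 ± 2.13 RPKM, n = 10, 31.7% of EC Mmp RNA), with 3.18 ± 0.69 RPKM in MSCs and 5.25 ± 0.31 RPKM in MNCs, where it kept between 4.89 and 5.74 RPKM. Of the 12036 genes with a mean of at least 1 RPKM in MNCs, 0.0748% had a smaller coefficient of variation than the 5.94% of Mmp12. The macrophage and monocyte list, at 11060 to 18700 RPKM in MNCs, was at most 81.6 RPKM in ECs. The far end of the Mmp12 gene overlaps Mmp1b on the other strand (7368239 to 7388047), and reads of the 2 cannot be told apart where they overlap because the kit does not mark strand. Mmp12 was called higher in ECs than in MSCs (log2 fold change 1.28 ± 0.19, edgeR adjusted p = 1.04e-05). The accounts of Mmp10, Mmp12, Mmp13, Mmp14, Adamts3 and Adamts5 were chosen after their values were seen.

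In MNCs, a population rich in neutrophils and their precursors, Mmp8 and Mmp9 made up 77.0 and 20.6% of Mmp RNA. Mmp8 was at 823, 478, 829 and 723 RPKM in Flt3+/+ MNCs and at 546, 739, 111 and 88.9 RPKM in Flt3ITD/ITD MNCs. Mmp9 (gelatinase B, chr2:164940780-164955850) was at 237, 173, 205 and 176 RPKM and at 136, 186, 24.4 and 22.3 RPKM, respectively. Mmp25, a membrane-type enzyme of leukocytes, was at 8.43, 6.69, 9.69 and 5.14 RPKM and at 7.16, 8.54, 0.58 and 2.31 RPKM. In all 3 genes, replicates 3 and 4 of the Flt3ITD/ITD MNCs were low and the other 6 libraries lay together, and for Mmp25 the lowest of these 2 (0.58 RPKM) fell within the EC range, whose highest value was 0.77 RPKM. All 3 were called higher in MNCs than in either other population, with edgeR adjusted p-values against ECs of 1.85e-07 for Mmp8, 3.91e-08 for Mmp9 and 5.16e-08 for Mmp25. The level of Mmp8 was at most 0.03 RPKM in ECs, and in MSCs it was above 0 in 1 library, replicate 5 of the Flt3ITD/ITD MSCs, at 10.95 RPKM (the library with 6289.7 RPKM of neutrophil markers). Replicate 2 of the Flt3ITD/ITD ECs, which held more of these markers (30045 RPKM), had 0 counts of Mmp8 and of Mmp9. Adamts17 was the fourth member called higher in MNCs, at a level of 0.05 to 0.60 RPKM, which overlapped that of ECs (0.05 to 0.15 RPKM) and MSCs (0.02 to 0.08 RPKM).

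The 2 low MNC libraries were also low in the summed level of the neutrophil list, though not in each of its genes. The list (8 of 9 genes in the table) summed to 43651 and 59825 RPKM in replicates 3 and 4 of the Flt3ITD/ITD MNCs and to 156423 to 199704 RPKM in the other 6 MNC libraries. The granule genes S100a8, S100a9, Ngp, Camp, Ltf and Lcn2 were each lowest in those 2 libraries. Mpo and Elane, granule genes of the earliest neutrophil precursors, were not: Mpo was at 2120 and 2188 RPKM there, above all others (299.7 to 1516 RPKM), and Elane at 1578 and 1461 RPKM, above 5 of the other 6 (149 to 2006 RPKM). Per 1000 RPKM of that list, Mmp8 was at 2.54 and 1.49 RPKM in those 2 libraries and at 2.69 to 4.98 RPKM in the others. For Mmp9 it was 0.558 and 0.372 RPKM against 0.754 to 1.23 RPKM. Mmp25 was at 0.0133 and 0.0386 RPKM per 1000 RPKM of the list, against 0.0311 to 0.0582 RPKM in the other 6. Without those 2 libraries, the mean of Mmp8 was 642.6 RPKM in Flt3ITD/ITD MNCs (n = 2) against 713.2 RPKM in Flt3+/+ MNCs (n = 4), and that of Mmp9 was 160.6 against 197.9 RPKM. The mean of Mmp25 was 7.85 against 7.49 RPKM, in the opposite direction to that with all libraries (4.65 against 7.49 RPKM).

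**Figure D5:**
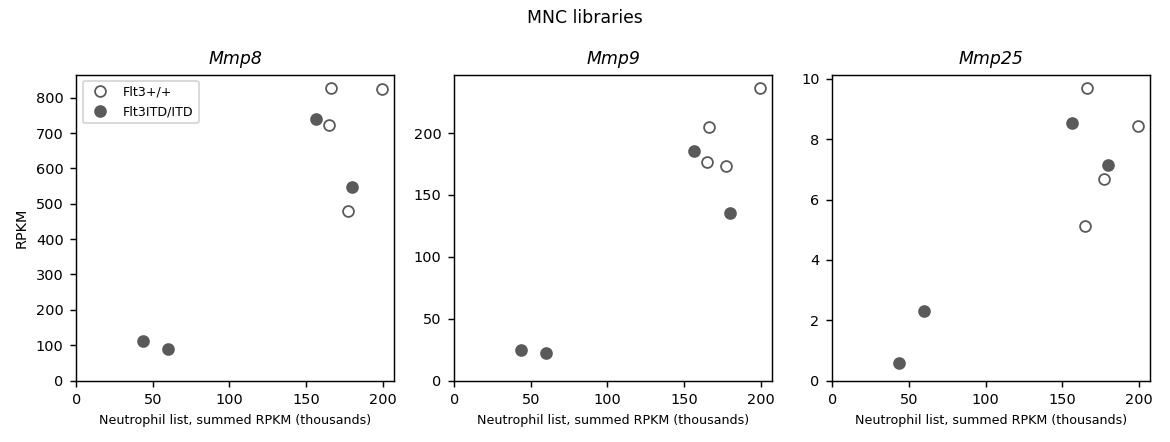
RPKM of Mmp8, Mmp9 and Mmp25 (vertical) in the 8 MNC libraries against the summed RPKM of the neutrophil list in units of 1000 RPKM (horizontal), open for Flt3+/+ and filled for Flt3ITD/ITD. Replicates 3 and 4 of the Flt3ITD/ITD MNCs sit at the lower left in each panel, and the other 6 libraries form 1 group that holds both genotypes.

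Among the ADAMTS proteoglycanases, Adamts1 was shared by ECs and MSCs, Adamts5 was read in both but called higher in MSCs, and Adamts9 was called higher in ECs. Adamts1, a protease of versican and aggrecan, ranged from 13.5 to 138 RPKM in ECs (median 75.6) and from 13.6 to 80.6 RPKM in MSCs (median 48.2), made up 52.5% of EC Adamts RNA, and was at most 0.02 RPKM in MNCs. Its EC and MSC ranges overlapped and it was not called between them. Adamts5, the major aggrecanase of mouse cartilage, was even in MSCs (26.2 to 52.8 RPKM) and uneven in ECs (0.49 to 49.2 RPKM), with a lower level in ECs (log2 fold change -2.08 ± 0.54, edgeR adjusted p = 0.00407). Adamts9, which cleaves versican and aggrecan, was at 16.8, 9.56, 37.8, 25.8 and 31.2 RPKM in Flt3+/+ ECs and at 6.07, 15.4, 3.38, 25.3 and 15.2 RPKM in Flt3ITD/ITD ECs, against at most 6.84 RPKM in MSCs and 0.05 RPKM in MNCs. The lowest EC values lay within the MSC range. The difference from MSCs (log2 fold change 3.20 ± 0.90, edgeR adjusted p = 0.00752) was not called among Flt3ITD/ITD libraries alone (adjusted p = 0.186).

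Adamts13, which cuts von Willebrand factor into smaller multimers, was highest in ECs in every library. It was at 15.6, 17.9, 21.3, 15.6 and 13.2 RPKM in Flt3+/+ ECs and at 16.4, 19.3, 24.3, 15.6 and 24.6 RPKM in Flt3ITD/ITD ECs. Levels of 1.42 to 6.40 RPKM in MSCs and 5.36 to 9.35 RPKM in MNCs lay below all of them (log2 fold change of ECs 1.81 ± 0.22 against MSCs, edgeR adjusted p = 5e-07, and 1.29 ± 0.23 against MNCs, adjusted p = 7.01e-05). Its substrate gene Vwf averaged 57.3 ± 28.2 RPKM in ECs, 0.001 RPKM in MSCs and 0.745 RPKM in MNCs. Mmp15, a membrane-type enzyme, was the last of the 4 EC members, at 1.34, 3.39, 5.70, 8.35 and 4.66 RPKM in Flt3+/+ ECs and at 3.59, 4.0, 2.48, 0.55 and 2.62 RPKM in Flt3ITD/ITD ECs. It was at most 0.02 RPKM in the other libraries except in replicate 3 of the Flt3+/+ MSCs (1.37 RPKM), which reached into the EC range. Its difference from MSCs (log2 fold change 6.65 ± 1.24, edgeR adjusted p = 0.000169) was not called among Flt3+/+ libraries alone (adjusted p = 0.158).

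The 3 procollagen N-proteinases were called higher in MSCs than in both other populations. Adamts2, which removes the amino-terminal propeptide of procollagens, was at 13.2 to 39.0 RPKM in MSCs (median 20.9), at most 4.19 RPKM in ECs and 0.48 to 0.72 RPKM in MNCs, with every MSC library above all others (log2 fold change of ECs against MSCs -4.30 ± 0.26, edgeR adjusted p = 2.53e-12). Adamts3 ranged from 0.01 to 17.9 RPKM in MSCs, with at most 0.04 RPKM in ECs and 0.01 to 1.38 RPKM in MNCs. Adamts14 ranged from 0.04 to 2.49 RPKM in MSCs, and overlapped ECs (0.03 to 0.17 RPKM) and MNCs (0.04 to 0.42 RPKM). Its call against MNCs was lost without replicate 3 of the Flt3ITD/ITD MSCs (log2 fold change 1.17). Fibrillar collagen RNA was high in the same population, with Col1a1 at 330 ± 101 RPKM in MSCs against 0.165 RPKM in ECs. Mmp23 and Adamts16 completed the members named for MSCs. Mmp23 was at 6.24 to 35.1 RPKM in MSCs and at most 0.63 RPKM elsewhere, with every MSC library above the rest (edgeR adjusted p = 1.45e-07 against ECs). Adamts16 was uneven, at 0.48 to 4.32 RPKM in 5 MSC libraries and at most 0.09 RPKM in the other 5.

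Of the members not yet described, several reached 1 RPKM on average in 1 population or more. Adamts4, an aggrecanase, ranged from 0.80 to 12.03 RPKM in ECs and from 0.25 to 7.16 RPKM in MSCs and was at most 0.03 RPKM in MNCs. Adamts10 averaged 4.95 RPKM in ECs, 3.41 RPKM in MSCs and 4.72 RPKM in MNCs and was called in none of the 3 comparisons. Mmp11 (stromelysin 3) averaged 4.32 RPKM in ECs, 7.55 RPKM in MSCs and 1.29 RPKM in MNCs, and Mmp19 averaged 2.19, 7.03 and 1.501 RPKM, respectively. Adamts15, Adamts6 and Mmp16 averaged 2.85, 3.52 and 2.04 RPKM in MSCs. Adamts12 averaged 1.59 RPKM in MSCs and 2.14 RPKM in ECs, where 1 library (replicate 3 of the Flt3+/+ ECs) was at 20.3 RPKM and the others were at most 0.64 RPKM. Mmp27 reached 2.04 RPKM in MNCs and was above 0.02 RPKM in 1 MSC library, replicate 1 of the Flt3ITD/ITD MSCs, at 6.84 RPKM (310 counts). Members with an average below 1 RPKM in every population, apart from Mmp27, Adamts14 and Adamts17, were Adamts7, Adamts8, Adamts18, Adamts19, Adamts20, Mmp7, Mmp17, Mmp1b, Mmp20, Mmp21, Mmp24 and Mmp28. Mmp7 (matrilysin), Mmp1b and Mmp20 (enamelysin of tooth enamel) had at most 1 count in any library. Such a level was at or below the floor at this depth.

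Of the Timp genes, 3 lie inside synapsin genes on the opposite strand, Timp1 in Syn1 (chromosome X), Timp3 in Syn3 (chromosome 10) and Timp4 in Syn2 (chromosome 6). Syn3, a gene known from neurons, was at 69.8 to 135 RPKM in ECs and 73.9 to 147 RPKM in MSCs and at 0.626 to 1.28 times Timp3 in the libraries of both. In MNCs Syn3 was at 0.12 to 0.59 RPKM, above the 0.00 to 0.08 RPKM of Timp3. In GENCODE vM21, 1 of 6 Syn3 transcripts shares 1733 of the 8144 exonic bases of Timp3 (21.3%). Because the libraries do not mark strand, RNA of the 2 genes cannot be told apart over those bases. The Syn3 count was 64.0 to 95.8% of that of Timp3 in MSCs and 81.8 to 131% in ECs. The share of bases does not bound the share of reads, which was not tested, so the levels of both genes are uncertain. Syn2 was at 0.01 to 20.1 RPKM in ECs and at most 0.04 RPKM elsewhere, and shares 90 exonic bases with Timp4 (1.53%). Syn1 shares none with Timp1 and averaged 0.679 RPKM in MSCs, where Timp1 averaged 202 RPKM.

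Between genotypes, no member was called in any population. In ECs 0 of 23 tested members were called by edgeR (0.0081% of all genes were), with 3 at an unadjusted p below 0.05 (4.99% of all genes) and 0 called by DESeq2 (2.45%). In MSCs it was 0 of 30 (0.0295% of all genes), with 3 at an unadjusted p below 0.05 (4.24% of all genes) and 1, Adamts19, called by DESeq2 (1.29%). In MNCs it was 0 of 17 (0.0144% of all genes), with 0 at an unadjusted p below 0.05 (10.4% of all genes) and 0 by DESeq2 (2.23%). Adamts19 had 44 and 317 counts in replicates 1 and 4 of the Flt3+/+ MSCs and at most 5 in each other MSC library (exact permutation p = 0.0873). Tests of whether the genotype difference itself differed between populations called 0 of 37 members for ECs against MSCs (0.379% of all genes), ECs against MNCs (0.0118%) and MSCs against MNCs (0.00592%), with 8, 2 and 7 members at an unadjusted p below 0.05 by edgeR, where 10.6%, 8.23% and 5.94% of all genes were. DESeq2 called 4, 1 and 2 members, respectively, and 5.55%, 2.99% and 2.15% of all genes to which it gave an adjusted p. The members that DESeq2 called were Adamts15, Mmp27, Mmp8 and Timp2 in the first, Mmp27 in the second, and Mmp27 and Mmp8 in the third. In MSCs, Mmp8 had counts only in replicate 5 of Flt3ITD/ITD (289 counts). Mmp27 had 310 counts in replicate 1 of the Flt3ITD/ITD MSCs and at most 1 in each other MSC library. DESeq2 was not run without these libraries.

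The clearest separation of genotypes was that of Timp2 in ECs. It was at 19.5, 26.5, 18.02, 28.1 and 17.7 RPKM in Flt3+/+ ECs and at 9.16, 3.73, 11.7, 15.3 and 15.2 RPKM in Flt3ITD/ITD ECs. The lowest value, 3.73 RPKM, came from replicate 2 of the Flt3ITD/ITD ECs, the library with 30045 RPKM of neutrophil markers. The groups did not overlap, and the exact two-sided permutation p was 0.00794, the smallest that 5 against 5 can give. Over all genes the difference was not called (log2 fold change -0.98 ± 0.39, edgeR adjusted p = 0.935). In MSCs Timp2 averaged 208 RPKM in Flt3+/+ and 237 RPKM in Flt3ITD/ITD mice. The genotype difference in ECs minus that in MSCs was -1.24 ± 0.43 on the log2 scale (edgeR adjusted p = 0.224), and DESeq2 gave an adjusted p of 0.0788 for it.

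Adamts2 was the other EC member whose genotypes did not overlap, with 0.75 to 1.0 RPKM in Flt3+/+ and 1.01 to 4.19 RPKM in Flt3ITD/ITD ECs (exact permutation p = 0.00794, edgeR log2 fold change 0.99 ± 0.58, adjusted p = 0.9998). The gap between the groups was that between 1.0 and 1.01 RPKM, and the highest value came from the EC library with the highest sum of the osteoblast list. Of 43 members above 0 RPKM in ECs, 2 did not overlap between genotypes, where 0.711% of all genes above 0 did not. In MSCs and in MNCs 0 of 43 members were apart, where 0.652% and 4.43% of all genes were. Adamts10, whose product binds fibrillin, was at 3.06, 0.29, 3.08, 0.80 and 2.26 RPKM in Flt3+/+ ECs and at 12.4, 14.7, 4.58, 1.70 and 6.66 RPKM in Flt3ITD/ITD ECs, with overlap (exact permutation p = 0.0317, edgeR adjusted p = 0.965).

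In MSCs the lowest exact p-values were those of Adamts14, Mmp25 and Timp1. Adamts14 was at 0.29, 1.70, 1.35, 0.91 and 2.49 RPKM in Flt3+/+ and at 0.06, 0.26, 0.64, 0.07 and 0.04 RPKM in Flt3ITD/ITD MSCs (exact permutation p = 0.0159, edgeR adjusted p = 0.999). Mmp25 was at 0.09 to 0.13 RPKM and at 0.11 to 0.36 RPKM, respectively (exact permutation p = 0.0397, edgeR adjusted p = 0.999). The values of Timp1 given above averaged 274 ± 135 RPKM in Flt3+/+ and 129.6 ± 82.4 RPKM in Flt3ITD/ITD MSCs (n = 5 each, exact permutation p = 0.0635), and 4 of the 5 Flt3ITD/ITD values lay below all Flt3+/+ values. The log2 fold change was -1.01 ± 0.46 (edgeR adjusted p = 0.999). The ratio of Timp to Mmp RNA averaged 1.38 ± 0.49 in Flt3+/+ MSCs and 0.859 ± 0.125 in Flt3ITD/ITD MSCs, with overlap.

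In MNCs the exact permutation p was 0.0857 for Mmp9, 0.143 for Mmp8 and 0.143 for Adamts6, where 4 against 4 can give no less than 0.0286. By edgeR the log2 fold change was -1.29 ± 0.65 for Mmp9 (adjusted p = 0.520) and -1.15 ± 0.66 for Mmp8 (adjusted p = 0.555), with the lower means resting in large part on the 2 libraries of low summed neutrophil list. Adamts6 was at 0.33, 0.76, 0.00 and 0.01 RPKM in Flt3+/+ and at 0.62, 0.48, 0.60 and 0.83 RPKM in Flt3ITD/ITD MNCs.

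Genes that act on or with these proteases were read from lists. Beside the counts below, 16.3% of all genes tested were higher and 16.6% lower in ECs than in MSCs. Of 24 activators, inhibitors and receptors of matrix proteases, 19 were tested, and 1 was higher and 10 lower in ECs than in MSCs. Among those lower were Serpinb2 (an inhibitor of urokinase, 0.003 against 3.17 RPKM), Lrp1 (an endocytic receptor that clears proteases, 0.308 against 38.9 RPKM) and Pcsk6 (a proprotein convertase, 1.76 against 46.1 RPKM). Serpinb2 had 1012 counts in replicate 2 of the Flt3+/+ MSCs and 93 and 1008 in replicates 2 and 3 of the Flt3ITD/ITD MSCs. Each other MSC library had at most 1 count of Serpinb2. Of 30 other proteases of the matrix, 28 were tested, with 3 higher and 15 lower in ECs, among them Pcolce2 (an enhancer of procollagen C-proteinase; 0.008 against 265 RPKM), Dpp4 (0.01 against 28.3 RPKM) and Adam33 (0.046 against 7.90 RPKM). Of 7 ADAMTS-like genes, which lack the protease domain, 1 was higher and 4 lower in ECs, with Papln at 1.53 against 0.03 RPKM, Adamtsl5 at 0.015 against 5.93 RPKM and Adamtsl4 at 0.74 against 12.3 RPKM. Of 30 substrates, 29 were tested, with 3 higher and 20 lower in ECs, among them Vwf (higher), Dcn (11.5 against 23920 RPKM) and Col1a1 (lower). Against MNCs, 27 of the 29 substrates were higher in MSCs (22.2% of all genes) and 1 lower (22%). In ECs 17 were higher than in MNCs (23.1% of all genes) and 3 lower (22%). No gene of these lists was called between genotypes in any population, by the same edgeR rule as the members.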

How the data were processed

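RNA-seq libraries of sorted ECs, MSCs and MNCs were made by the authors with a SMARTer kit that does not mark strand and read as single ends of 51 bases. Per the submitters' processing notes and the study's methods, reads were aligned with Bowtie to UCSC transcripts of mm10 (GRCm38), reads mapping to more than 1 place were discarded, and genes were quantified with RSEM (versions not given in the sources used here). The deposited read counts are RSEM estimates in whole numbers, not normalized, and the deposited RPKM values were scaled by the authors by transcript length and library total. Such discarding lowers the counts of near-identical genes.

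Counts were tested here with edgeR 4.0.16 in R 4.3.3 (TMM, filterByExpr, quasi-likelihood test), with DESeq2 1.42.0 as an alternative, and all genes were adjusted together. Populations were compared in 1 fit over all 28 libraries, and genotypes within each population. Single members were also compared by an exact two-sided permutation test of mean RPKM. The code was tested on simulated data. The members, the gene lists and the tests were chosen with earlier results of these data known. Members described in full were the 3 of highest mean RPKM in each population, up to 4 per population that were called higher there than in both others (by ratio to the next), and up to 3 per population of smallest exact p between genotypes. From each list of related genes up to 3 were named, those of largest log2 ratio among the called. Exonic overlaps came from GENCODE vM21 and promoters from RefSeq GRCm38.p6, which held 31 of the 45 members. Libraries with the same replicate number are not stated to be from the same mouse, and the main tests did not pair them.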

Additional observations from a re-analysis of the deposited data

Results flagged for a closer look

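The 20 members described by rule were searched in each group of 4 or 5 libraries whose highest value reached 1 RPKM. Among the 68 groups searched, 5 held a library that lay apart from the rest of its group by Dixon's criterion on log2(RPKM + 1). The criterion is set to flag about 1 of 20 groups of normally distributed values. Several groups here held mostly values at or near 0, so the counts of groups cannot be set against that rate. Adamts2 was at 4.19 RPKM in replicate 5 of the Flt3ITD/ITD ECs, against 1.01 to 1.17 RPKM in the other 4. Mmp15 was at 1.37 RPKM in replicate 3 of the Flt3+/+ MSCs, against 0 in the others. Mmp8 was at 10.95 RPKM in replicate 5 of the Flt3ITD/ITD MSCs, against 0 in the others, and Timp4 was at 1.13 RPKM in that library, against at most 0.04 RPKM. Timp1 was at 1.01 RPKM in replicate 3 of the Flt3ITD/ITD MNCs, against at most 0.12 RPKM in the others. The same search in the other 25 members, added after their values were seen, found a library apart in 14 of 65 groups. Those of highest level were Mmp13 in replicate 5 of the Flt3ITD/ITD ECs (22.9 RPKM, against at most 0.17 RPKM), Adamts12 in replicate 3 of the Flt3+/+ ECs (20.3 RPKM, against at most 0.30 RPKM), Mmp11 in replicate 1 of the Flt3+/+ ECs (10.7 RPKM, against at most 0.66 RPKM), Mmp27 in replicate 1 of the Flt3ITD/ITD MSCs (6.84 RPKM, against at most 0.02 RPKM) and Adamts20 in replicate 4 of the Flt3ITD/ITD MSCs (5.40 RPKM, against 0).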

How the results depend on the processing

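Leaving out 1 library at a time gave 23 to 25 members called between ECs and MSCs (24 with all), 22 to 25 between ECs and MNCs (24 with all) and 28 to 31 between MSCs and MNCs (30 with all), and 0 between genotypes or in their difference between populations. With DESeq2, 4, 1 and 2 members were called where the genotype difference differed between populations (ECs against MSCs, ECs against MNCs and MSCs against MNCs), and 1 between genotypes in MSCs, against 0 by edgeR, and the cause was not tested. With a replicate block, 23, 22 and 27 members were called between populations, all among those called without it, and 0 between genotypes. Deviations of libraries with the same number correlated at -0.055 to 0.027 over 26 pairs of populations within a genotype, none over 0.1. Over 14 pairs of genotypes, which cannot be of the same mouse, the correlations were -0.072 to 0.066. Such values do not settle whether populations came from the same mice. The other settings gave 19 to 27, 21 to 25 and 24 to 33 calls in the 3 population comparisons. Calls lost without 1 library were those of Mmp9 between ECs and MSCs (log2 fold change -0.90 without replicate 4 of the Flt3+/+ MSCs), Timp4 between MSCs and MNCs (4.65 without replicate 5 of the Flt3ITD/ITD MSCs), Adamts14 between MSCs and MNCs (1.17 without replicate 3 of the Flt3ITD/ITD MSCs), Adamts2 between ECs and MNCs (0.76 without replicate 5 of the Flt3ITD/ITD ECs), Mmp23 between ECs and MNCs (-1.04 without replicate 2 of the Flt3ITD/ITD MNCs) and Mmp2 between ECs and MNCs, which was lost without any of 6 libraries (1.12 to 2.25). Over all settings, 1525 values of single members kept their direction and their side of the threshold, 36 lost the call and 0 turned direction. In MNCs no exact p below 0.0286 was possible, and levels under 3 counts per library could not be read.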
